A study of Arabidopsis thaliana with 6 samples.

Results

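The chloroplast genome of *Arabidopsis thaliana* was represented by 133 gene rows, all rows whose gene ID begins with ATCG, of 37336 gene rows in all. No filter on level was applied to membership. The libraries were made from siliques (the fruit, holding fruit wall and developing seeds) of self-pollinated plants, 1 to 5 days after pollination, with 3 libraries of the wild type (WT) and 3 of the *eml1-2 eml3-4* double mutant (*eml1 eml3*). EML proteins are histone readers, and the series asks how they hold back seed development where no fertilization has occurred. The labels name no background accession and no transgene. Whether each library had its own plants or harvest is not stated in them, and the p-values therefore describe only how these 6 libraries spread, part of which may be technical.

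Plastid genes encode core subunits of the photosystems, the cytochrome b6f complex, the ATP synthase and the NDH complex, the large subunit of Rubisco, and part of the RNA polymerase, ribosome and tRNA set that express them. Most are transcribed together with their neighbours, by a plastid-encoded polymerase that needs nuclear-encoded sigma factors and by a phage-type polymerase encoded in the nucleus. Stable plastid mRNAs generally end without a poly(A) tail, and short A-rich tails added in plastids mark RNA for decay. RNA was selected repeatedly on oligo(dT) beads here, so every level below is a level in oligo(dT)-selected RNA and is not the level of the gene's RNA in the plastid. In bulk siliques, fewer plastid-rich cells and less plastid RNA per cell cannot be told apart.

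By name, 80 of the 133 rows could be paired with a RefSeq TAIR10.1 gene. The sequences of 9 of them are shown. They include rpl32 and psbM, which ranked 1 and 3 in level per length. The gene that ranked 2, ATPE (for an ATP synthase subunit), is not shown, and its longest run is 4 A. Also shown are rpoA and ycf1, high genes with a long A run, genes that differed between genotypes and the best-known photosynthesis mRNAs. Another is accD (for a subunit of acetyl-CoA carboxylase), which has a long A run and a low level. Runs of A are in capitals, since oligo(dT) can pair with them. The pair given whole, with every run of at least 4 A in capitals, are short genes among the 3 highest per length, and each other gene is shown as a longest A run with 15 bases on either side, where the gene extends that far. Each is given 5′ to 3′ on the strand of the gene, with its place in the plastid genome (Pltd) of TAIR10.1.
rpl32, whole gene, Pltd:113449-113607, plus strand: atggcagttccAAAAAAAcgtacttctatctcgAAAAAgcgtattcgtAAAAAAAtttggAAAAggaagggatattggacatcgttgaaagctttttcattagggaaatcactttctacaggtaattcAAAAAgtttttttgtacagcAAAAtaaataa
psbM, whole gene, Pltd:28707-28811, minus strand: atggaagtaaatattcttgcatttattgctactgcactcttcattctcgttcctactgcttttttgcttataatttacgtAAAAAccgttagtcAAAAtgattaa
rpoA, window, Pltd:78080-78123, minus strand: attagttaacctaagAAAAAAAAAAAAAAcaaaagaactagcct
ycf1, window, Pltd:125853-125895, minus strand: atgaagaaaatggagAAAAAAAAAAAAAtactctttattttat
rps14, window, Pltd:37169-37206, minus strand: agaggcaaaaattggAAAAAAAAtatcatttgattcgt
rps18, window, Pltd:68198-68222, plus strand: tagtcttagaaccagAAAAAAAtag
accD, window, Pltd:57357-57399, plus strand: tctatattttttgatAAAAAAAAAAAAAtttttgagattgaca
psbA, window, Pltd:1353-1386, minus strand: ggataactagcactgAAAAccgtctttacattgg
rbcL, window, Pltd:55489-55523, plus strand: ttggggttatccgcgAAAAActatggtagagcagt

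Recovered depth was 26771227 to 39246167 reads per library. EML3, a targeted gene, had 2255, 2129 and 2718 normalized counts in the WT libraries but 190, 173 and 198 in the mutant libraries (log2 -3.65 ± 0.15, SE, limma adjusted p = 2.24e-06). EML1, the other, was not called (limma adjusted p = 0.499), and its whole-gene count is no check of the allele. Mutant replicate 3 stood apart in summed seed storage genes (6 genes), at 61917 normalized counts against 56.8 to 139 in the other 5 libraries. Summed pollen genes (3 genes) stood at 4135, 4472 and 11494 in WT and at 3869, 2339 and 2259 in the mutant, so that WT replicate 3 stood apart and every mutant library was below every WT library. Summed petal and stamen genes (2 genes) were also separated by genotype, at 4393, 3073 and 3591 in WT and at 1991, 1914 and 2187 in the mutant. Silique wall genes (5 genes) summed to 5988 to 6716 in WT and to 5593 to 6056 in the mutant, with overlap. No marker in these lists was below 1 in every library. The part of these differences in the results below was not tested, and results that change without these libraries are given without them.

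Chloroplast genes took 1.40%, 1.42% and 0.814% of the WT reads, in the order of replicates 1 to 3, and 0.927%, 0.983% and 0.989% of the mutant reads in the same order, which is kept below. The 95% Wilson interval was 1.42% to 1.43% for the highest value and 0.811% to 0.818% for the lowest, which covers counting error only. The groups overlapped: WT replicates 1 and 2 were the highest libraries and WT replicate 3 the lowest. The WT mean was 1.21% ± 0.346 (SD, n = 3) and the mutant mean 0.966% ± 0.0340 (SD, n = 3), a difference of -0.247 percentage points that is smaller than the WT spread. Without WT replicate 3 the difference was -0.446 points, and without WT replicate 2 it was -0.142 points. Mitochondrial genes took 0.0564%, 0.0423% and 0.0512% of the reads in WT and 0.0393%, 0.0313% and 0.0377% in the mutant, with every mutant library below every WT library, as for the pollen, petal and stamen genes, whose part in this was not tested. The mean mitochondrial sum was 15577 normalized counts in WT and 11744 in the mutant, and few genes held most of it. RRN26, a ribosomal RNA gene, had means of 9027 in WT and 6555 in the mutant, and ORF107A 2314 and 937. RRN18 was not lower, at 2792 and 2940. Of the 31 mitochondrial genes tested, 19 had a log2 change below 0 and 12 above. The chloroplast sum was 24.9, 33.6 and 15.9 times the mitochondrial sum in WT. In the mutant it was 23.6, 31.4 and 26.2 times, with overlapping groups.

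**Figure D1:**
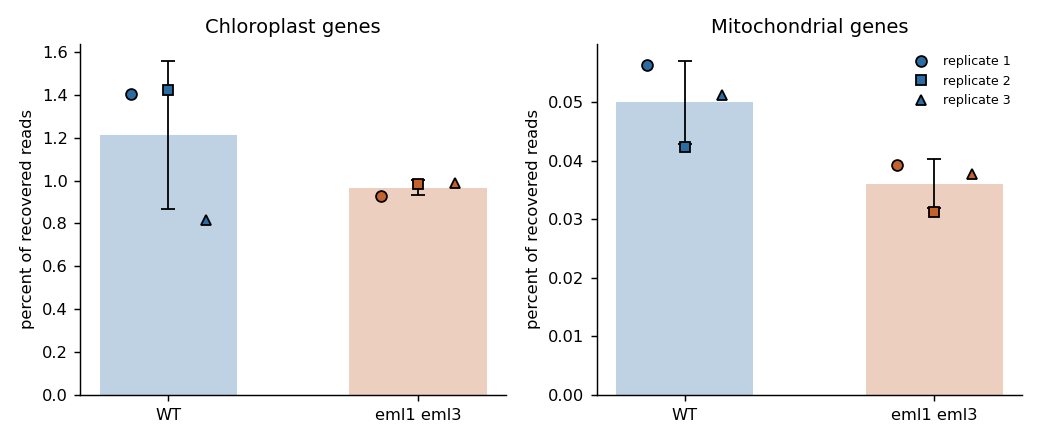
Percent of recovered reads on chloroplast genes (left) and mitochondrial genes (right) in 3 WT and 3 *eml1 eml3* libraries; bars are group means, error bars are SD and symbols are libraries by replicate number. WT replicate 3 is the lowest chloroplast library at 0.814%, while the mutant libraries lie between 0.927% and 0.989%.

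The chloroplast reads were unevenly spread over the 133 genes. Over the 6 libraries 27 genes had a mean normalized count of at least 1000, 42 lay from 100 to 1000 and 64 were under 100. At least 1 read was present in every library for 111 genes. The 5 with 0 reads in every library were both copies of ORF77 and the tRNA genes TRNL.2, TRNI.2 and TRNN.2; 3 reads, the limit that a count of 0 allows, correspond to 2.43 to 3.78 normalized counts. The 3 highest genes together held 52.1% of the normalized chloroplast reads, and the 10 highest held 81.4%.

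**Figure D2:**
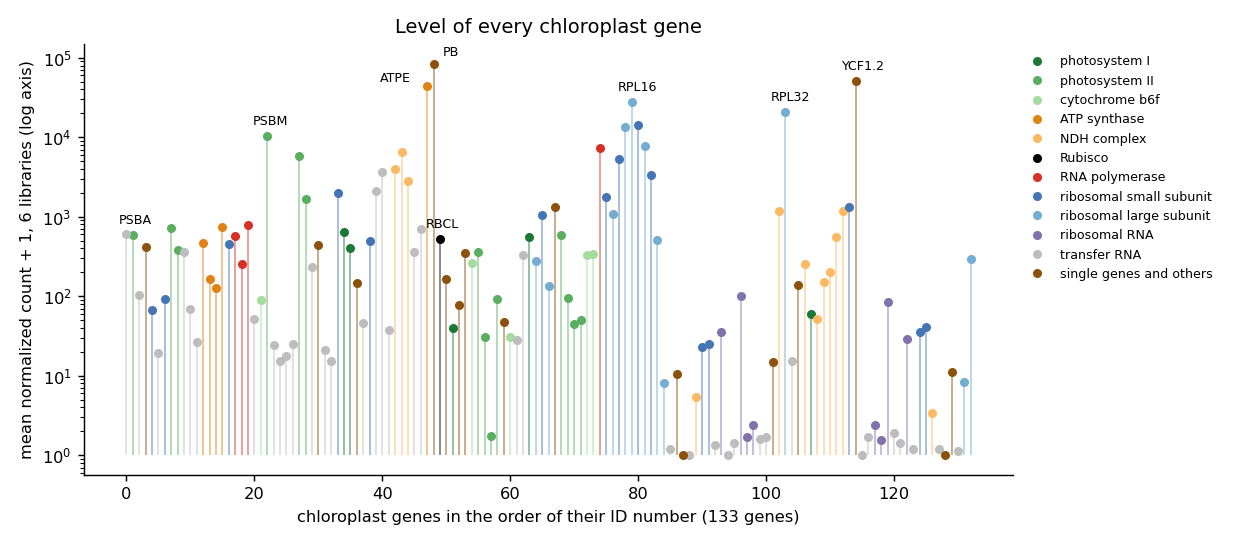
Mean normalized count + 1 over the 6 libraries (log axis) of all 133 chloroplast genes in the order of their ID number, coloured by role. The highest values are at neighbouring IDs around ATPE and PB, in the ribosomal protein cluster around RPL16, and at RPL32 and YCF1.2, while PSBA and RBCL stand at 594 and 524.

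The highest gene by count, with no length known here, was PB (ATCG00480), the symbol that the deposited table gives to the gene known for the beta subunit of the plastid ATP synthase. It stood at 81077, 113497 and 51374 normalized counts in WT and at 79199, 86292 and 97113 in the mutant. WT held both the highest and the lowest library (log2 change 0.16 ± 0.25, SE, limma adjusted p = 0.761). Its share of the chloroplast reads ran from 18.0% in WT replicate 1 to 29.1% in mutant replicate 3. The adjoining ATPE (ATCG00470), for the epsilon subunit, stood at 73386, 60114 and 27982 in WT and at 33058, 31741 and 41006 in the mutant. WT replicate 3 was the lowest of the 6, and the change did not pass the test (log2 -0.51 ± 0.30, SE, limma adjusted p = 0.360). In the RefSeq annotation atpE overlaps atpB, and reads in the overlap cannot be assigned with certainty. The ATP synthase genes encoded elsewhere in the chloroplast genome were far lower per length. ATPA, for the alpha subunit, had a mean of 307 normalized counts per kb of exon and ATPF 293, against 111648 for ATPE.

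YCF1.2 (ATCG01130), for a subunit of the protein import machinery of the inner envelope, was the second highest by count. It stood at 72136, 62066 and 45050 in WT and at 43717, 46742 and 38315 in the mutant. WT replicates 1 and 2 were above every mutant library, whereas WT replicate 3 was below mutant replicate 2. The change did not pass over all genes (log2 -0.46 ± 0.18, SE, limma adjusted p = 0.167). Per length it was lower than several ribosomal protein genes, at 9576 per kb, since its exon is 5361 bases long. RefSeq sequence of 536 bases of it has a near-identical copy in both the nuclear and the mitochondrial genome, and reads there could be shared.

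The ribosomal protein genes of the large subunit held 20.7% of the chloroplast reads and those of the small subunit 8.78%. Per length RPL32, the gene printed whole above, was the highest of the 80 rows with a RefSeq gene, at 129912 normalized counts per kb of exon. RPL32 has only 159 exonic bases, and a level per kb of so short a gene compares less well with longer ones. By mean count it ranked 5 of the 133 genes. Its counts were 34956, 27148 and 13238 in WT and 17280, 15289 and 16026 in the mutant. WT replicates 1 and 2 were above the mutant libraries and WT replicate 3 below them (log2 -0.52 ± 0.28, SE, limma adjusted p = 0.321). The neighbouring genes RPL14, RPL16, RPS3, RPL22 and RPS19 were also high per length. RPL16 had 67920 per kb, RPL14 36151, RPS3 22013, RPL22 16042 and RPS19 11955. RPL16 stood at 33275, 33579 and 22288 in WT and at 25223, 26218 and 25686 in the mutant, which lay inside the WT range. RPL14 stood at 12223, 15830 and 11174 in WT and at 12354, 14519 and 13938 in the mutant, again inside it. RPS3 and RPL22 overlap in the annotation, so their reads cannot be fully told apart. RPL2.2 and RPL2.1, copies in the inverted repeat with identical RefSeq sequence, had means of 293 and 511, and RPL23.1 and RPL23.2 stayed at 3.92 to 18.9 in every library.

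The RNA polymerase genes did not share a level. RPOA, for the alpha subunit, lies near these ribosomal protein genes in ID order and had 7445 per kb, whereas RPOB had 243, RPOC2 139 and RPOC1 125. RPOA stood at 9140, 9981 and 6948 in WT and at 5213, 7098 and 5840 in the mutant. Its WT replicate 3 was below mutant replicate 2, and the change did not pass (log2 -0.52 ± 0.16, SE, limma adjusted p = 0.0819). RPOC2 was highest in mutant replicate 3, at 1215 against 235 to 713 in the other 5 libraries.

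Among photosystem genes the highest was PSBM (ATCG00220), for a small photosystem II subunit, with 98663 normalized counts per kb. With 105 exonic bases it has the same limit as RPL32, and it ranked 8 by mean count. It stood at 23027, 12976 and 8577 in WT and at 8602, 7437 and 1540 in the mutant. The groups met at WT replicate 3 and mutant replicate 1, and mutant replicate 3 was the lowest by a wide margin. Its log2 change of -1.57 ± 0.56 (SE) was the lowest of the tested chloroplast genes and did not pass (limma adjusted p = 0.133). Scaled to the chloroplast total of each library instead of all genes, it passed (log2 -1.35, limma adjusted p = 0.00306), with 2 of 106 chloroplast genes called lower where 1.44% of all genes were. PSBD, for the D2 reaction centre protein, had 5507 per kb and overlaps PSBC, for an inner antenna protein, at 1170 per kb.

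The best-known photosynthesis mRNAs ranked near the middle per length, PSBA 39 and RBCL 49 of the 80 rows with a RefSeq gene. PSBA (ATCG00020), for the D1 reaction centre protein, stood at 754, 535 and 450 in WT and at 492, 513 and 819 in the mutant, or 559 per kb. RBCL (ATCG00490), for the large subunit of Rubisco, stood at 585, 464 and 308 in WT and at 548, 517 and 723 in the mutant, or 364 per kb. Both overlapped between genotypes and were highest in mutant replicate 3. In RefSeq, 506 bases of PSBA and 573 of RBCL have a near-identical copy in both the nuclear and the mitochondrial genome. Reads there could be shared. The photosystem I core genes PSAB and PSAA had 293 and 180 per kb.

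The cytochrome b6f genes PETD, PETB and PETA had 698, 507 and 267 per kb. Of the NDH genes, 3 neighbours were high: PSBG, whose long name in the deposited table pairs it with ndhK, had 9679 per kb, NDHJ 8424 and NDHC 7820. The NDH genes of the other genomic stretch lay far lower, with NDHH at 1006, NDHF at 531 and NDHD at 171 per kb. NDHB.1 and NDHB.2, identical over 2224 bases in RefSeq, had at most 8.82 normalized counts in any library.

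Ribosomal RNA, the main RNA of plastid ribosomes, took 0.0719% of the chloroplast reads. RRN23S.1 stood at 199.6, 94.0 and 63.1 in WT and at 109.6, 70.9 and 60.5 in the mutant. The 4 rows that passed the filter on level, with a mean of at least 10, all had log2 changes below 0, from -0.44 to -0.16, and none passed the test. The rows RRN16S, RRN23S and RRN4.5S are pairs of identical copies in RefSeq, and the treatment of reads that match several places is not given in the sources used here. Of the 37 tRNA genes 23 passed the filter, and the highest were TRNL.1 with a mean of 3621 and TRNT.2. TRNL.1 was at 6644, 4453 and 2301 in WT and at 2903, 2729 and 2693 in the mutant, with WT replicate 3 below the mutant libraries.

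Genes with long A runs were found at both high and low levels. Over the 54 rows with a RefSeq gene of at least 200 exonic bases, the level per kb and the longest A run in the gene had a Spearman correlation of -0.04, and the level and the percentage of A had 0.38. These describe genes that share the same libraries and neighbouring transcripts. A run of at least 10 A was present in 7 of the 54. RPOA, with 14, and YCF1.2, with 13, were high, whereas ACCD and RPOC2, each with 13, had 112 and 139 per kb, and ATPE reached its level with a longest run of 4.

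**Figure D3:**
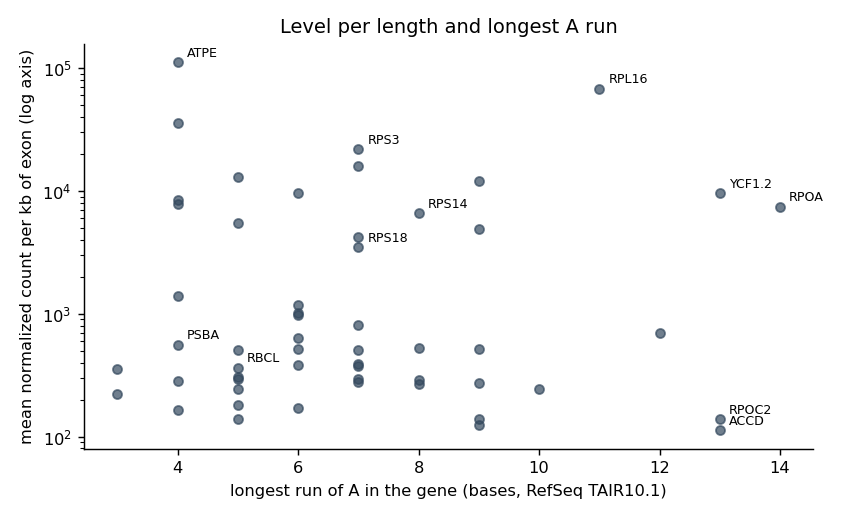
Mean normalized count per kb of exon (log axis) against the longest run of A in the gene span, introns included, for 54 chloroplast genes of at least 200 exonic bases; each point is a gene. Genes with 13 A include YCF1.2 at 9576 per kb and ACCD at 112 per kb.

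Between the genotypes, 3 of the 107 chloroplast genes that passed the filter were lower in the mutant and 0 were higher in limma, where 3.1% of all 21751 genes tested were called lower, 3.69% higher and 6.79% in either direction. This count of 3 is close to that background. The 26 others were not tested, 21 of them with some reads. At an unadjusted limma p under 0.05 there were 12 (11.2%), all lower in the mutant, where 10.7% of all tested genes were lower at that level. Log2 changes were below 0 for 60 genes and above 0 for 47, with a median of -0.14 against 0.0032 for all tested genes and a range of -1.57 to 0.78. Scaled to the chloroplast total, 64 were above 0 and 42 below, with a median of 0.08 where all genes had 0.22.

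RPS14 (ATCG00330), a small subunit ribosomal protein gene, had the strongest test. It stood at 4674, 2456 and 1776 in WT and at 1077, 685 and 1352 in the mutant. Every mutant library was below every WT library, and the mean was 2.86-fold lower (log2 -1.45 ± 0.33, SE, limma adjusted p = 0.0276). RPS18 (ATCG00650), also of the small subunit, stood at 2201, 1428 and 855 in WT and at 716, 528 and 678 in the mutant. The groups did not overlap (2.33-fold lower, log2 -1.13 ± 0.29, SE, limma adjusted p = 0.0425). YCF9 (ATCG00300), for a small photosystem II protein, stood at 800, 666 and 360 in WT and at 309, 236 and 284 in the mutant. It did not overlap either (2.20-fold lower, log2 -1.07 ± 0.28, SE, limma adjusted p = 0.0468). In all of these WT replicate 1 was the highest library and WT replicate 3 the lowest of WT. The summed pollen genes and the summed petal and stamen genes were likewise lower in every mutant library, and their part in these results was not tested.

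**Figure D4:**
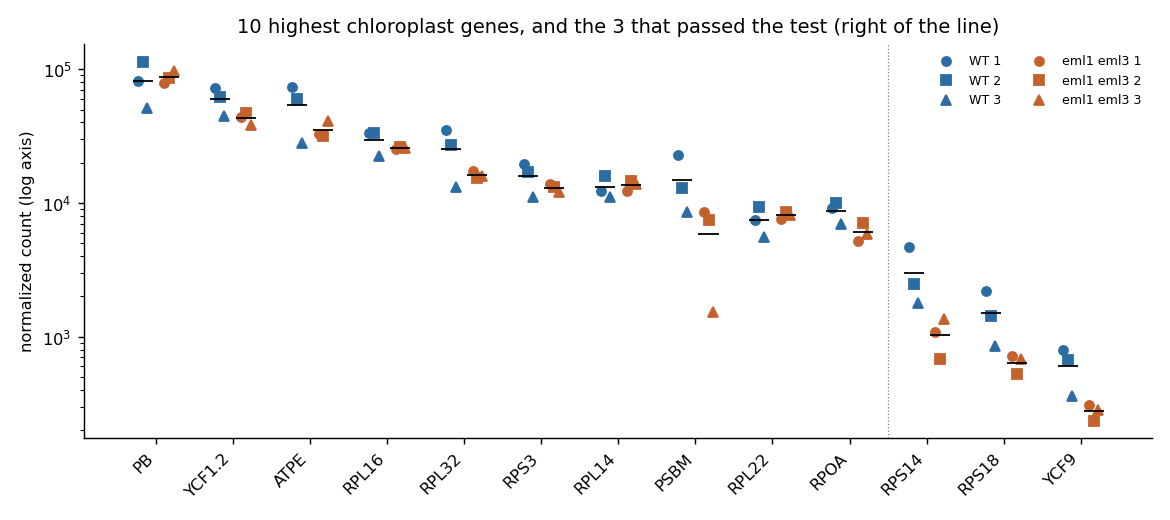
Normalized counts (log axis) in each of the 6 libraries for the 10 highest chloroplast genes and, right of the dotted line, the 3 that passed the test; black lines are group means. For RPS14, RPS18 and YCF9 all mutant libraries lie below all WT libraries, whereas for PB the mutant libraries lie between 79199 and 97113, inside the WT range.

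Just outside the threshold was ATPI (ATCG00150), for a membrane subunit of the ATP synthase. It stood at 1430, 880 and 740 in WT and at 327, 342 and 719 in the mutant, without overlap (log2 -1.17 ± 0.32, SE, limma adjusted p = 0.0544). Its whole RefSeq sequence of 750 bases has a near-identical copy on a nuclear chromosome, so its reads could come from either genome, and the same holds for the adjoining RPS2. RPS2 stood at 904, 568 and 326 in WT and at 267, 195 and 459 in the mutant, with overlapping groups (limma adjusted p = 0.183). Of the 112 chloroplast genes with an adjusted p in the authors' deposited table, 7 were at or under 0.05, all lower in the mutant. Of all 24507 genes with an adjusted p there, 4.52% were lower at that level. The 7 were ATPI, RPS2, YCF9, RPS14, RPS18, RPOA and YCF1.2. On the recovered reads DESeq2 called 7 of 128 lower, where 3.74% of 29619 genes were. Those 29619 had a p-value but not always an adjusted p, so that share is on another base than the 4.52%. EdgeR with no filter called 7 of 128 lower, where 3.33% of 29685 genes were. Limma with a robust variance prior called 1 of 107, where 3.17% of all genes were called lower.

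By role, 2 of the 15 tested small subunit genes were called, both lower, where 3.1% of all tested genes were called lower. A log2 change below 0 was found for 10 of the 15, where 49.7% of all tested genes had one. These rows are not all separate genes. RPS12A, RPS12B and RPS12C (log2 -0.16, -0.74 and -0.75) all carry the gene name RPS12. RPS7.1 and RPS7.2 (log2 0.29 and -0.27) are copies with identical RefSeq sequence. No test by role was made. Roles were set by symbol, so YCF9 and PB were counted among the 13 tested single genes and others, although their products belong to photosystem II and the ATP synthase. No gene was called among 9 large subunit genes, 13 psb genes, 5 photosystem I genes, 5 cytochrome b6f genes, 5 atp genes, 10 NDH genes, 4 RNA polymerase genes or 23 tRNA genes, in limma. Of these, 1 each of the large subunit, psb, cytochrome b6f, atp, RNA polymerase and tRNA groups had an unadjusted p under 0.05. Among all tested genes 21.5% did. RBCL was at log2 0.43 ± 0.24 (SE, limma adjusted p = 0.342). Mutant libraries lay wholly below WT for 6 of the 107 tested genes (5.61%) and wholly above for 0, where 12.8% of all genes were wholly lower and 14.0% wholly higher.

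**Figure D5:**
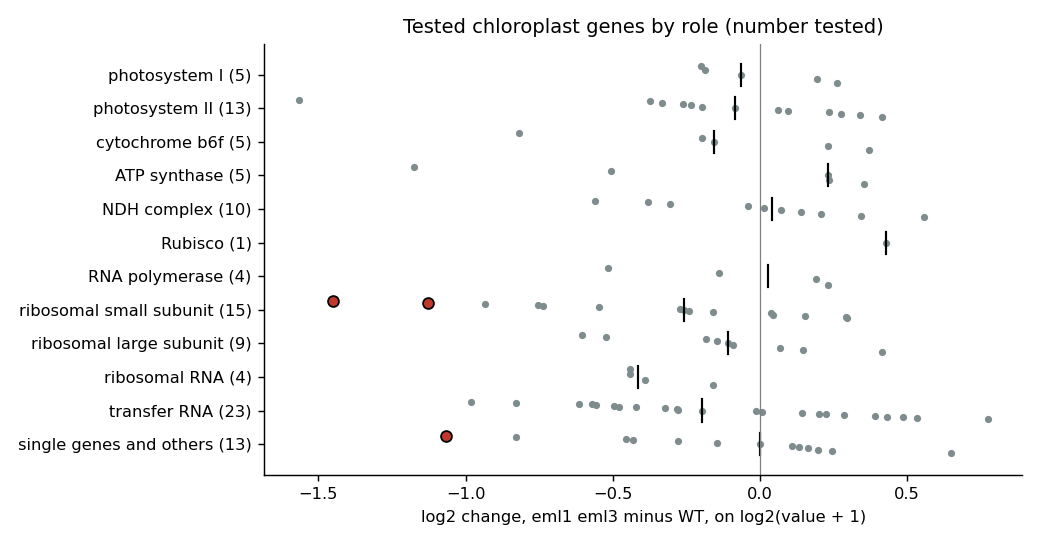
Log2 change (*eml1 eml3* minus WT, on log2(value + 1)) of the 107 tested chloroplast genes by role, with the number tested in brackets; each point is a gene, black ticks are group medians and large red points passed the test. The 3 red points are RPS14 and RPS18 in the small subunit and YCF9 among the single genes, all below -1.

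The count of calls changed most when libraries numbered 3 were left out. Mutant replicate 3 was the highest library for 47 of the 107 tested chloroplast genes and WT replicate 1 for 39, whereas WT replicate 3 was the lowest for 50 and mutant replicate 1 for 34. Over all tested genes each library was the highest for 9.95% to 21.3% and the lowest for 11.9% to 20.4%. Without WT replicate 3, 10 chloroplast genes were called, all lower, where 1.58% of all genes were called lower. Without mutant replicate 3, 7 were called, all lower, where 6.73% of all genes were called lower. Without both, 33 of 106 (31.1%) were called lower and 0 higher, where 7.39% of all genes were called lower. The chloroplast median log2 change was -0.66, where all genes had 0.0087. Mitochondrial genes were at -0.53, with 22 of 31 below 0. Nuclear partners of the plastid-encoded complexes, described below, were at -0.14, with 36 of 46 below 0. The nuclear plastid-expression genes, also below, were at 0.10, with 10 of 38 below 0. Among chloroplast genes WT replicate 3 was most often the lowest library and mutant replicate 3 most often the highest, so leaving them out itself favours lower calls. The comparison left is therefore no separate test of direction. In that comparison of 2 libraries with 2, ATPE changed by -1.04 (limma adjusted p = 0.00129), RPL32 by -0.92 (limma adjusted p = 0.00359) and PSBD by -0.86 (limma adjusted p = 0.00170). With all 6 libraries the limma adjusted p of ATPE, RPL32 and PSBD was 0.360, 0.321 and 0.708. Leaving out WT replicate 1, WT replicate 2, mutant replicate 1 or mutant replicate 2 left 0 called by limma, where 3.76%, 2.91%, 3.05% and 2.62% of all genes were called. At an unadjusted p under 0.05 there were then 6 (5.66%), 11 (10.2%), 8 (7.41%) and 7 (6.48%) chloroplast genes, where 19.1%, 17.5%, 16.5% and 15.8% of all genes passed. The median log2 change was then 0.04, 0.02, 0.14 and -0.03, so its sign turned in 3 of these.

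Nuclear genes for the transcription, processing or decay of plastid RNA were compared as a list of 38, all tested. The list also holds proteins associated with the plastid-encoded polymerase, such as FLN1, FLN2, TRX z, FSD2 and FSD3. It holds as well the regulators GPRI1, GLK2 and GUN1 of nuclear photosynthesis genes. In limma 1 of the 38 was higher and 1 was lower in the mutant, at a median log2 change of 0.06, where 6.79% of all genes were called. CRB (AT1G09340), a chloroplast RNA-binding protein, stood at 15116, 14803 and 12897 in WT and at 17991, 20333 and 19709 in the mutant (log2 0.44 ± 0.11, SE, limma adjusted p = 0.0469). GPRI1 (AT2G20570), also called GLK1, a transcription factor for nuclear photosynthesis genes, stood at 1216, 1422 and 1529 in WT and at 996, 978 and 911 in the mutant (log2 -0.52 ± 0.13, SE, limma adjusted p = 0.0422). The groups overlapped for neither gene. Without WT replicate 2 or 3, or mutant replicate 1 or 2, 0 of the 38 were called by limma, with 4 to 7 (10.5% to 18.4%) at an unadjusted p under 0.05 where 15.8% to 20.3% of all genes passed, and without WT replicate 1 only 1 was. The sigma factor genes, whose products direct the plastid-encoded polymerase, did not pass. The highest change among them was that of SIGE, at 438, 570 and 533 in WT and 671, 765 and 750 in the mutant (limma adjusted p = 0.0862).

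Nuclear genes for partners of the plastid-encoded complexes numbered 46 tested, with 2 (4.35%) called in limma, where 6.79% of all genes were called, and a median log2 change of 0.04. LHCB4.3 was higher, at 3509, 3216 and 3161 in WT and 4817, 5149 and 4845 in the mutant (log2 0.58 ± 0.10, SE, limma adjusted p = 0.00845). LHCB4.2 was lower, at 42610, 39516 and 37635 in WT and 25807, 27035 and 32202 in the mutant (log2 -0.50 ± 0.13, SE, limma adjusted p = 0.0462). Both encode antenna proteins of photosystem II. Limma called 0 of the 46 without WT replicate 2 or without mutant replicate 2, with 2 (4.35%) and 3 (6.52%) at an unadjusted p under 0.05 where 17.5% and 15.8% of all genes passed, and 1 without WT replicate 1, WT replicate 3 or mutant replicate 1. Of 31 mitochondrial genes tested, 1 (3.23%) was called, where 3.1% of all genes were called lower and 6.79% in either direction. It was lower in the mutant: ORF107A (ATMG00030), named after its values were seen, at 2858, 1844 and 2240 in WT and 841, 826 and 1144 in the mutant (limma adjusted p = 0.00244). The mitochondrial median was -0.21.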

How the data were processed

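The authors deposited a signal table of read counts per gene, each library divided by its own size factor. The submitters' processing notes list STAR 2.5.2a, Trim Galore, DESeq2, featureCounts, Subread and SAMtools without saying what each did; the build, the strand setting and the handling of multi-mapping reads are not stated there. A second table by the authors holds log2 fold changes with standard errors, a test score, p-values and adjusted p-values (column names per the file headers). In each library all values (100%) were whole multiples of the smallest one above 0, to within 1e-06, which gave back whole reads for totals, shares and count tests.

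All 21751 genes whose mean normalized count reached 10 were tested on log2(value + 1) with limma 3.58.1 (R 4.3.3), using its variance trend and genotype alone as a term, two-sided, with Benjamini-Hochberg adjustment over all genes and a threshold of 0.05. Changes on this scale understate those of low genes. The script was tested on simulated data. Alternatives were other pseudocounts, filters and scalings, a robust prior, a replicate block, leaving out libraries, edgeR 4.0.16 and DESeq2 1.42.0.

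Symbols came from the authors' deposited table (131 of 133 rows). They paired 80 rows with RefSeq TAIR10.1 genes, which gave exon lengths, sequences and overlaps; PB, YCF9 and PCLPP found no partner. Near-identical copies have at least 95% identity over at least 150 bases (BLAST 2.17.0). Named were the 10 highest genes, those past the threshold, up to 4 of the highest per role, and of the nuclear list those past the threshold; others were chosen after their values were seen. The nuclear partners were chosen by symbol, and the list takes in PSAT and PSAT1, whose symbols fit the letters but which are not photosystem genes. The chloroplast genes and all lists were chosen with earlier results of these data known. Some items are not reported here.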

Additional observations from a re-analysis of the deposited data

How the results depend on the processing

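The count of 3 chloroplast genes called stayed within 1.5 times under both other pseudocounts, both other filters, all 4 other scalings and edgeR with its filter. The genes behind the count were not always the same. Rescaled to one chloroplast total, the 2 called were PSBM (limma adjusted p = 0.00306) and RPS14 (limma adjusted p = 0.0193), so RPS18 and YCF9 lost their calls. The count was 1 with a robust variance prior (RPS14 and RPS18 lost their calls), 7 with edgeR and no filter and 7 with DESeq2. Leaving out 1 library gave 0 to 10, and leaving out both libraries numbered 3 gave 33. NDHF, at a log2 change of 0.01 with all libraries, was at -0.59 (limma adjusted p = 0.0365) without both libraries numbered 3; over its other alternatives the adjusted p was at least 0.441. RPS14 lost its call in 5 of 21 alternatives, RPS18 in 7 and YCF9 in 7, while ATPI gained a call in 6 and PSBM in 5; the causes were not tested. The count of 2 nuclear plastid-expression genes was 1 with no filter, 1 when libraries were rescaled to one total of all reads and 1 with one total outside the organelle genes. It was 0 when rescaled to one chloroplast total (limma, 1 at an unadjusted p under 0.05), which moves the median of all genes by 0.22, and 1 without both libraries numbered 3. Leaving out 1 library gave 0 to 2. The difference in chloroplast share kept its sign, at -0.446 to -0.142 points without 1 library and -0.253 points without PB or with reads outside the organelle genes as denominator. Whether the replicate numbers pair the samples is not known. After centring within each genotype, same-numbered libraries correlated at -0.08, -0.002 and -0.17 and the others at -0.14 to 0.17. Values centred on so few libraries cannot exclude pairing. With a replicate block, limma called 3 chloroplast genes (2.8%) and 0 nuclear plastid-expression genes, where 5.53% of all genes were called. PSBM and RPS14 were among these 3, which were thus not the same 3 as without the block. With the block edgeR called 2 (1.89%) and 0, where 4.67% of all genes were called. Its 2 were PSBM and RPS14, so RPS18 and YCF9 were not called there. In each of these fits, 6 of the 38 nuclear genes had an unadjusted p under 0.05. Over all genes 4661 of 21751 in limma and 4430 of 21619 in edgeR did. Of the 26 chloroplast genes with a mean under 10, 21 had reads and were tested where no filter was used, and the 5 with 0 reads were not. Many are copies with identical sequence, and the part of depth and of shared reads in their low counts was not tested.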
